A study of Mus musculus with 12 samples.

Results

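Transcripts typical of hepatocytes, the cells that make most plasma proteins and lipoproteins, were followed here in NK cells and type 1 innate lymphoid cells (ILC1) sorted from mouse liver. The genes described are 42 transcripts of hepatocytes and plasma lipoproteins, chosen by their symbols from the 5545 genes with complete rows in the table. Earlier results of these data were known when the 42 were chosen. They fall into 6 groups by role: 7 plasma proteins, 11 apolipoproteins, 5 complement genes, 6 enzymes of amino acid metabolism and the urea cycle, 10 enzymes that act on alcohols, esters and drugs, and 3 genes for receptors and a transcription factor. The libraries came from 3 lean and 3 obese female C57BL/6 mice (C57BL/6J in the study's methods), numbered 25, 26 and 27 in each diet. Lean mice were weaned onto RM1 chow and obese mice onto the obesogenic diet 824018 with condensed milk, and both diets were given for 12 weeks. From each liver, lineage-negative cells with NK1.1 were sorted as NK cells when they carried CD49b without CD49a, and as ILC1 when they carried CD49a without CD49b, so that the 12 libraries form 4 groups of 3, named by diet and cell type. Libraries were made from 2 ng of RNA, and a library is named below by its group and the number of its mouse.

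Hepatocytes secrete albumin (Alb), fetuin-A (Ahsg), clotting and complement factors, and the apolipoproteins that carry fat and cholesterol in plasma. They also hold the enzymes of the urea cycle and of drug metabolism. Albumin is widely used as a marker of hepatocytes. A few of the 42 are made by other cells as well: apolipoprotein E (Apoe) and Apoc1 by macrophages, Arg1 by some macrophages and innate lymphoid cells, and C3, Cfb, Cp and Cebpa by myeloid or other immune cells.

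The promoters of 3 of the genes are shown, since the ratios reported below turn on them: Alb is the denominator, Apoa1 is an apolipoprotein made mainly by liver and gut, and Apoe is the member that macrophages also make. Each sequence is taken from RefSeq on GRCm38.p6, runs 5′ to 3′ on the gene's strand, and spans 250 bases before the annotated start and 50 after it. Capitals mark matches to 4 motifs searched on both strands, the TATA box TATAAA, the HNF1 half-site GTTAAT, the C/EBP site TTGCNNAA and the HNF4 half-site CAAAGTCC.
Alb, chr5:90460620-90460919, plus strand: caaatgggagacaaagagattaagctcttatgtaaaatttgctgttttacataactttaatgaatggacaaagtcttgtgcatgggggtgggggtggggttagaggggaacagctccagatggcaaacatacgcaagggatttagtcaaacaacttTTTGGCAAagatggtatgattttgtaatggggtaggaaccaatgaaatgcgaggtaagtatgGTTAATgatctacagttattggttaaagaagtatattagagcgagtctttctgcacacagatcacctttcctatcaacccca
Apoa1, chr9:46228380-46228679, plus strand: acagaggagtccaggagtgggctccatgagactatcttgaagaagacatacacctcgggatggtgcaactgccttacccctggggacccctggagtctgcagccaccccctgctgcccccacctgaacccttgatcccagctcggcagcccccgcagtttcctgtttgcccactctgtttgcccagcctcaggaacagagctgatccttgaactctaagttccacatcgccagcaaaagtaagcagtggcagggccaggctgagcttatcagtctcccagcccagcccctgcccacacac
Apoe, chr7:19699139-19699438, minus strand: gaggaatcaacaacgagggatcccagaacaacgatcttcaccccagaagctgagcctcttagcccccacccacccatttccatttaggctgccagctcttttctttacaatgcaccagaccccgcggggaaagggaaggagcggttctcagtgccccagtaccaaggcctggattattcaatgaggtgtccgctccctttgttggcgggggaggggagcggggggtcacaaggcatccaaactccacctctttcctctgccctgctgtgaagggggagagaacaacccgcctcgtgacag
The Alb window held a C/EBP site, read on the other strand, and an HNF1 half-site. In the Apoa1 and Apoe windows none of these letters was found, which says nothing about the factors. Promoters were available for 34 of the 42 genes, 40 in all. Of these 40, 12 (30%) held TATAAA, against 13.6% of all 32851 promoters. GTTAAT was found in 6 of 40 (15%) against 7.10% of all promoters, TTGCNNAA in 9 of 40 (22.5%) against 10.8%, and CAAAGTCC in 2 of 40 (5%) against 1.42%.

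The libraries held 1666637 to 2826766 counts over the genes analysed, and 1948 (lean NK 27) to 3292 (obese ILC1 26) genes had at least 1 count. One library stood apart. In obese ILC1 26, genes of the sorted cells were low: Cxcr6, a chemokine receptor of ILC1, had 3575 counts there against 14264 to 23154 in the other ILC1 libraries and 61 to 855 in NK cells, and Ccl5 had 7129 counts against 48239 to 116185 in the other 11 libraries. Genes of other liver cells were high in the same library. A list of 11 Kupffer cell and macrophage genes took 1.58% of its counts (0.00878% to 0.118% in the others), 6 B cell genes 0.525% (0% to 0.0222%) and 6 endothelial genes 0.798% (0% to 0.0139%). The shares and edgeR fits that involve obese ILC1 26 are therefore given with and without it, whereas DESeq2 was run with it alone.

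All 42 transcripts were detected in obese ILC1 26, and all 42 had both their highest count and their highest share of counts in it. Together they took 364844 counts there, 19.9% of the library (95% exact binomial interval 19.85% to 19.96%). The median transcript had 96.3% of its counts over the 12 libraries in this single library, the lowest was Arg1 with 38.0%, and 32 of 42 were above 90%. For Agxt, a hepatocyte enzyme of glyoxylate metabolism, and Acsm1, an acyl-CoA synthetase, the 58 and 42 counts of obese ILC1 26 were the only counts in the data. Alb and Apoe were the only ones with counts in all 12 libraries.

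**Figure D1:**
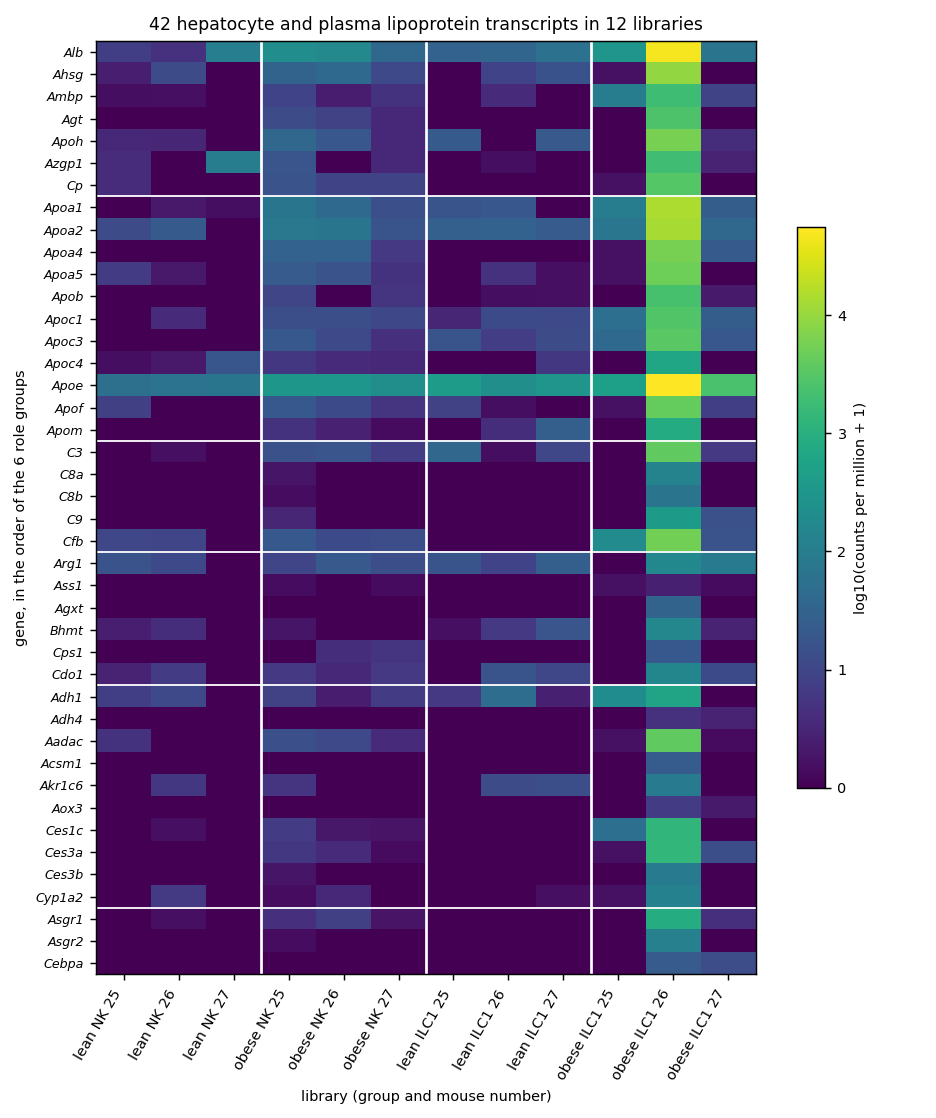
Counts per 1000000 counts of each of the 42 transcripts (rows, in the order of the 6 role groups) in each of the 12 libraries (columns), as log10 of the value plus 1, from 0 (dark) to the highest value (yellow). The column of obese ILC1 26 is the brightest for all 42 rows, the 3 obese NK columns are filled in more rows than the 3 lean NK columns, and the Apoe row has signal in every column.

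In the other 11 libraries the 42 transcripts together made up less than 0.3% of counts, and the groups were ordered by diet within each cell type. Their summed share was 0.0135%, 0.0158% and 0.0288% in lean NK 25, 26 and 27. In obese NK 25, 26 and 27 it was 0.1001%, 0.0825% and 0.0402%. The 3 obese NK libraries thus all lay above the 3 lean ones, with means of 0.0742% ± 0.0308 and 0.0194% ± 0.00827 (SD, n = 3), a ratio of 3.83. Lean ILC1 held 0.0569%, 0.0427% and 0.0546%, a mean of 0.0514% ± 0.00765 (SD, n = 3). Obese ILC1 25 and 27 held 0.159% and 0.276%, both above every lean ILC1 library, beside the 19.9% of obese ILC1 26. The number of transcripts with a count followed a similar order, with 5 to 20 of 42 in lean NK and 27 to 36 in obese NK. It was 12 to 19 in lean ILC1, and 19, 42 and 25 in obese ILC1 25, 26 and 27. Over all genes analysed, 1948 to 2841 had a count in lean NK and 3075 to 3084 in obese NK. In lean ILC1 2478 to 2781 genes had one, and 2014, 3292 and 2757 in obese ILC1 25, 26 and 27. In bulk libraries such as these, more cells of a type and more of its RNA per cell cannot be told apart.

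Part of these differences was carried by Apoe alone, which made up 23.4% to 86.1% of the summed counts. Without Apoe, lean NK ranged from 0.00803% to 0.0221% and obese NK from 0.0184% to 0.0685%, so that the groups overlapped through lean NK 27 and obese NK 27. They also overlapped without the 7 members that immune cells make as well (0.00525% to 0.0221% and 0.0134% to 0.0614%). Lean ILC1 without Apoe ranged from 0.0178% to 0.0247% and overlapped with lean NK. Obese ILC1 25 and 27, at 0.111% and 0.0384%, lay above lean ILC1 without Apoe. Lean NK 27, the library with the fewest genes detected, owed 37.3% of its 616 counts to Alb and had only 5 of the 42 transcripts. Without both Apoe and Alb the NK groups did not overlap, at 0.00738% to 0.0113% in lean and 0.0144% to 0.0477% in obese NK. Lean ILC1 then held 0.0148% to 0.0188%, above every lean NK library. The ratio of means of obese to lean NK was 3.49 without Apoe and 3.48 without both.

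**Figure D2:**
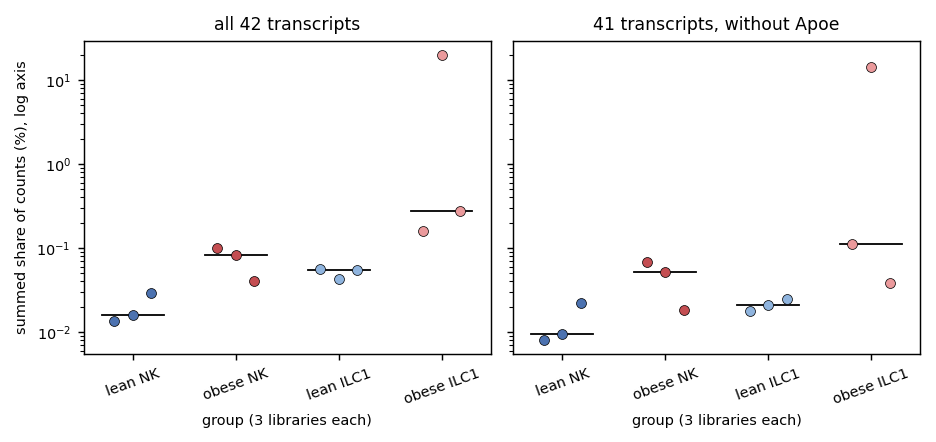
Summed share of counts (%, log axis) of the 42 transcripts (left) and of the 41 without Apoe (right) in each library (points, ordered by mouse number 25, 26, 27 within a group), with the median of each group as a line. Obese ILC1 26 stands at 19.9% and 14.4%, and without Apoe the lean NK and obese NK points overlap.

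The plasma proteins took 36.5% of the member counts of obese ILC1 26. Alb, the main protein of plasma, had 13, 7 and 230 counts in lean NK 25, 26 and 27. It had 480, 474 and 99 counts in obese NK, 53, 65 and 109 in lean ILC1, and 497, 87894 and 165 in obese ILC1. The obese ILC1 libraries all lay above the lean ones in share of counts, whereas the NK groups overlapped because lean NK 27 exceeded obese NK 27 in share. Ahsg, a carrier of calcium and inhibitor of mineralisation, had 3, 21 and 0 counts in lean NK and 73, 115 and 25 in obese NK. In lean ILC1 it had 0, 15 and 28 counts and in obese ILC1 1, 16984 and 0, so that it was nearly missing from the obese ILC1 libraries other than 26. Apoh, a phospholipid-binding glycoprotein, was the third most abundant, with 10850 counts in obese ILC1 26 and 0 to 81 elsewhere. Ambp, the precursor of α1-microglobulin and bikunin, had 164 and 21 counts in obese ILC1 25 and 27 and 0, 5 and 0 in lean ILC1. Angiotensinogen (Agt) was detected in the 3 obese NK libraries (27, 21 and 6 counts) and in obese ILC1 26 (4794) and in no other. Ceruloplasmin (Cp) had 35, 24 and 21 counts in obese NK against 6, 0 and 0 in lean NK. Azgp1, a lipid-mobilising glycoprotein, had 204 counts in lean NK 27 and 0 to 39 in the other libraries apart from obese ILC1 26 (3534).

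The 11 apolipoproteins took 54.0% of the member counts of obese ILC1 26 and gave the clearest order of the groups elsewhere. Their summed share was 0.00798%, 0.00894% and 0.00852% in lean NK and 0.0581%, 0.0502% and 0.0281% in obese NK, a ratio of means of 5.36 without overlap. Lean ILC1 held 0.0461%, 0.0292% and 0.0376%, and obese ILC1 0.0743%, 10.8% and 0.251%. Lean NK was thus the lowest group, and obese NK and lean ILC1 overlapped.

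Apoe, the ligand by which lipoprotein remnants are taken up, had 111, 116 and 144 counts in lean NK and 728, 878 and 548 in obese NK. Lean ILC1 had 697, 416 and 559 counts, and obese ILC1 799, 101061 and 6045. As counts per 1000000 counts, the means were 61.7 ± 6.28 in lean NK, 281 ± 55.0 in obese NK and 303 ± 86.7 in lean ILC1 (SD, n = 3), and the obese ILC1 libraries stood at 479, 55139 and 2378. Lean NK lay below every other library, obese NK (218 to 316) and lean ILC1 (219 to 392) overlapped, and each obese ILC1 library lay above both.

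Apoa1, the main protein of high-density lipoprotein, had 0, 2 and 1 counts in lean NK and 156, 113 and 33 in obese NK. It had 29, 35 and 0 counts in lean ILC1 and 160, 26192 and 60 in obese ILC1. The obese libraries were above the lean ones in both cell types. Apoa2, the second protein of those particles, had 23, 38 and 0 counts in lean NK, 178, 194 and 40 in obese NK, 49, 58 and 41 in lean ILC1, and 122, 24562 and 100 in obese ILC1. In share of counts its obese NK values (15.9 to 77.2 counts per 1000000) overlapped with lean NK (0 to 20.6).

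Apoc3, an inhibitor of lipoprotein lipase, had no count in any lean NK library, 44, 29 and 9 counts in obese NK, 28, 12 and 22 in lean ILC1, and 67, 6170 and 47 in obese ILC1. Against a floor of 3 counts per library in lean NK, its mean share was at least 7.29-fold higher in obese NK and at least 7.49-fold higher in lean ILC1. Apoc1, which is made by hepatocytes and macrophages, had 0, 5 and 0 counts in lean NK, 30, 36 and 24 in obese NK, 4, 20 and 19 in lean ILC1, and 88, 5244 and 61 in obese ILC1. Its shares in the obese groups all lay above those of the lean group of the same cell type. Apoa4, made by gut and by mouse liver, was at 0 in all lean libraries of both cell types. It had 69, 84 and 13 counts in obese NK, at least 14.3-fold above that floor, and 1, 10604 and 53 in obese ILC1. The remaining apolipoproteins were sparse outside obese ILC1 26: Apoa5, Apob, Apoc4, Apof and Apom had 0 to 51 counts in each of the other 11 libraries.

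The genes of Apoa1, Apoc3, Apoa4 and Apoa5 lie side by side on chromosome 9 (46228580 to 46271919 in GRCm38), and those of Apoc4, Apoc1 and Apoe on chromosome 7 (19678083 to 19699188). Neighbours did not share their pattern in every group. In lean ILC1, Apoc3 had 12 to 28 counts while Apoa4 had none, and Apoa5 had 0 to 7.

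Complement genes took 4.94% of the member counts of obese ILC1 26, nearly all from Cfb (9900) and C3 (7069). Cfb, the protease of the alternative pathway, had 19, 16 and 0 counts in lean NK and 45, 30 and 31 in obese NK. It had no count in the 3 lean ILC1 libraries and 318, 9900 and 39 in obese ILC1. C3, the central complement protein, had 0, 1 and 0 counts in lean NK, 33, 47 and 16 in obese NK, 64, 1 and 17 in lean ILC1, and 0, 7069 and 13 in obese ILC1. C3 and Cfb were thus higher in all obese NK than in all lean NK libraries, while in ILC1 only Cfb separated the diets. C8a, C8b and C9, components of the membrane attack complex, had 0 to 35 counts per library outside obese ILC1 26, where they had 245, 123 and 688.

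Enzymes of amino acid metabolism were the scarcest group, with 0.262% of the member counts of obese ILC1 26. Arg1, the last enzyme of the urea cycle, departed from the rest. It had 31, 19 and 0 counts in lean NK, 20, 57 and 32 in obese NK, 28, 15 and 49 in lean ILC1, and 0, 298 and 235 in obese ILC1, so that no 2 groups were apart. Bhmt and Cdo1, of methionine and cysteine metabolism, had 286 and 277 counts in obese ILC1 26, and 0 to 32 and 0 to 30 elsewhere. Cps1, the first enzyme of the urea cycle, had 35 counts in obese ILC1 26, and Ass1, which makes argininosuccinate, had 3 counts, its highest in any library.

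Among the enzymes that act on alcohols, esters and drugs, Aadac, an ester-cleaving enzyme of the endoplasmic reticulum, was the most abundant in obese ILC1 26 (7111 counts). It had 31, 29 and 7 counts in obese NK, 8, 0 and 0 in lean NK, none in lean ILC1, and 1 each in obese ILC1 25 and 27. Ces3a, a carboxylesterase, had 2483 counts in obese ILC1 26, 11, 8 and 1 in obese NK, and none in the lean libraries. Its relative Ces1c had 2392 counts there, 88 in obese ILC1 25, and 13, 3 and 2 in obese NK against 0, 1 and 0 in lean NK. Each carboxylesterase has close relatives beside it on chromosome 8, Ces3b for Ces3a and Ces1d for Ces1c, so reads may have been divided between relatives when counted. Adh1, alcohol dehydrogenase, had 342 counts in obese ILC1 25 and none in 27, and 93 in lean ILC1 26 against 9 and 3 in the others. Cyp1a2, a drug-oxidising enzyme, had 217 counts in obese ILC1 26 and 0 to 10 elsewhere.

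The asialoglycoprotein receptor subunits Asgr1 and Asgr2, which clear desialylated plasma proteins, had 1576 and 211 counts in obese ILC1 26. Outside it Asgr1 had 8, 20 and 2 counts in obese NK, 0, 1 and 0 in lean NK, 9 in obese ILC1 27 and none elsewhere, and Asgr2 had 1 count in all. Cebpa, a transcription factor of hepatocytes and myeloid cells, was found in obese ILC1 26 (40 counts) and obese ILC1 27 (31) alone.

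Counts of single transcripts were uneven between mice of a group. With obese ILC1 26 set aside, there were 18 instances in which a transcript had at most 1 count in one library and at least 30 in another library of the same group. Examples are Azgp1 in lean NK (0 to 204), C3 in lean ILC1 (1 to 64), and Arg1 (0 and 235) and Adh1 (342 and 0) in obese ILC1 25 and 27. The libraries carry no molecular identifiers, so a count of this kind need not come from as many molecules, and the intervals given cover counting error only.

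For obese against lean NK cells, the question was whether the diet changed these transcripts in NK cells. edgeR's quasi-likelihood test over all 12 libraries, for which 2606 genes including 24 of the 42 passed the filter on low counts, called 0 of the 42 (adjusted p under 0.05 and fold change over 2). The background was 0% of the 2606 genes called higher, with 31 genes at an unadjusted p under 0.05, of which 2 were Apoa1 and Apoc3. Without obese ILC1 26 it was 7 of the 24 members tested (73 of 2698 genes), and without lean NK 27 it was 0 of 31 (20 of 2796 genes). DESeq2 called 8 genes, 1 of them the sparse C9. The log2 fold change was 2.15 ± 1.27 for Apoe (SE, adjusted p = 1), 6.12 ± 2.63 for Apoa1 (adjusted p = 1) and 1.73 ± 1.89 for Alb (adjusted p = 1). Without lean NK 27 the log2 fold change of Alb was 4.73, again not called, and all obese NK libraries were then above both remaining lean ones. By share of counts, 14 of the 42 (33.3%) were higher in all 3 obese NK than in all 3 lean NK libraries, beside 9.95% of the 3889 genes with a count. None of the 42 was lower in all, beside 3.39% of genes. The 14 were Agt, Ambp, Cp, Apoa1, Apoa4, Apoc1, Apoc3, Apoe, Apom, C3, Cfb, Ces1c, Ces3a and Asgr1. Without lean NK 27, 16 of the 42 were higher, beside 13.5% of genes, and 1 (Bhmt) was lower, beside 10.5%. The median change over all 42, on log2 of counts per 1000000 plus 2, was 1.01, beside 0.13 over the 3889 genes. Of the marker lists, the summed shares of 8 T cell genes (0.02362% to 0.0498% in obese, 0.0135% to 0.02356% in lean NK) were also higher in all obese NK libraries. So were those of the ILC1 genes Cxcr6 and Cd200r1 (0.0128% to 0.0391% and 0.00337% to 0.00723%). For CD200R1, the study reports more transcript and more protein in NK cells from obese livers. The 4 cholangiocyte genes were higher as well (3, 15 and 3 summed counts against 0). The part of these lists in the result was not tested. The summed shares of macrophage, endothelial, stellate, B cell and neutrophil genes overlapped between the diets. For the macrophage list, Cd68 and Cd163 held most of the lean NK counts. Of the 10 macrophage genes tested by edgeR, 8 had a positive log2 fold change (median 3.03, 0 called), and Cd68 and Cd163 a negative one. The part of this list was not tested either.

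For obese against lean ILC1, edgeR called 0 of the 42 and 0% of all genes, although 19 of the 24 tested had an unadjusted p under 0.05 (277 of 2606 genes). Without obese ILC1 26 this became 5 of 24 (266 of 2698 genes). DESeq2 called 77 genes, among them Ambp, C9, Ces1c and Cfb. The log2 fold change of Apoe was 6.64 ± 1.55 (adjusted p = 0.208) and that of Alb 9.29 ± 2.60 (adjusted p = 0.263). Without obese ILC1 26 they were 2.22 ± 0.49 (adjusted p = 0.258) for Apoe and 2.23 for Alb. By share, none of the 42 was lower in all obese than in all lean ILC1 libraries, beside 7.51% of the 3889 genes. In all obese libraries 12 of the 42 (28.6%) were higher, beside 2.6% of genes: Alb, Ambp, Apoa1, Apoa2, Apoa4, Apoc1, Apoc3, Apoe, Cfb, Ass1, Aadac and Ces3a. For Ass1, Aadac, Ces3a and Apoa4 this rested on 1 count in obese ILC1 25. Without obese ILC1 26 the same 12 were apart, beside 7.87% of genes, while the median change over the 42 went from 2.45 to 0.25, beside -0.05 and 0 over the 3889 genes. The macrophage list moved with this comparison, at 0.0953%, 1.58% and 0.118% of counts in obese ILC1 25, 26 and 27 and 0.00920% to 0.0260% in lean ILC1. The 6 endothelial genes held 0.0109%, 0.798% and 0.00893% against 0.00380% to 0.00686%. Lower in all obese ILC1 libraries were the summed shares of the 8 T cell genes (0.169% to 0.656% against 0.754% to 0.892%) and the cholangiocyte genes (0% to 0.00922% against 0.0107% to 0.0141%). The same held for Ccl5 and Cd7 (0.568% to 5.53% against 5.61% to 6.28%), the 2 genes measured of 9 listed for NK cells. Cd7 did not mark NK cells here, with 45171 to 51593 counts in lean ILC1 and 5107 to 6924 in lean NK. Most of the lean ILC1 counts of the T cell list were Cd3g, and 4 of the 6 T cell genes tested had a positive log2 fold change. The cholangiocyte difference was that of Cdh1 (0, 167 and 62 counts in obese, 250, 204 and 213 in lean ILC1). The part of these lists in the result was not tested.

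ILC1 and NK cells of the same livers were compared to ask which transcripts differ by cell type. In lean mice edgeR called 0 of the 42, with 1.5% of 2606 genes called higher (60 genes in all, and 21 with the mouse as a block). Of the 24 members tested, 1, Apoc3, had an unadjusted p under 0.05, beside 346 of 2606 genes. Without obese ILC1 26 it was 6 of 24, 4 of them higher, beside 428 of 2698 genes. DESeq2 called 151 of 3623 genes. Of the 42 it called only Ces1c, which had 1 count in lean NK and none in lean ILC1, as lower. Apoe had a log2 fold change of 2.26 ± 1.28 (adjusted p = 0.541). Its call differed between fits: in the fit of the 6 lean libraries alone it was 2.25 ± 0.36 (adjusted p = 0.0167), and without obese ILC1 26 it was 2.24 ± 0.47 (adjusted p = 0.0195), with Apoc3 then also called (adjusted p = 0.0463). With the mouse as a block the adjusted p of Apoe was 0.693. Apoa2, Apoc3 and Apoe, 3 of the 42 (7.14%), were higher in all lean ILC1 than in all lean NK libraries, beside 9.93% of the 3889 genes, and the median change over the 42 was 0, as over all genes. T cell genes (0.754% to 0.892% against 0.0135% to 0.02356%, most lean ILC1 counts from Cd3g) and B cell genes (0.00787% to 0.0157% against 0% to 0.00428%) were also higher in all lean ILC1 libraries. So was the cholangiocyte list (0.0107% to 0.0141% against 0%), through Cdh1 alone, as Cftr, Cldn4 and Cldn7 had no count in them. The summed macrophage share overlapped. Of the 10 macrophage genes tested, 8 had a positive log2 fold change (median 5.22, 0 called), and Cd68 and Cd163 a negative one. The part of these lists was not tested.

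In obese mice edgeR called 0 of the 42 between ILC1 and NK cells, with 0.537% of genes called higher (24 genes in all, and 0 with the mouse as a block). Of the 24 members tested, 20 had an unadjusted p under 0.05, all higher in ILC1, beside 369 of 2606 genes. DESeq2 called 154 of 3623 genes, among them Adh1, Ambp, Ces1c and Cfb. Without obese ILC1 26, 3 of the 24 tested had an unadjusted p under 0.05, 1 higher and 2 lower, beside 397 of 2698 genes. Apoe was then called, at a log2 fold change of 2.31 ± 0.49 (adjusted p = 0.0378) in place of 6.75 ± 1.55 (adjusted p = 0.0727). Ambp, Apoc1 and Apoe, 3 of the 42 (7.14%), were higher in all obese ILC1 than in all obese NK libraries, beside 3.21% of the 3889 genes. Without obese ILC1 26 the same 3 were apart, beside 11% of genes, and 8 were lower in both remaining obese ILC1 libraries than in all obese NK libraries, beside 20.7% of genes: Ahsg, Agt, Cp, Apoa5, Apoc4, Apom, C3 and Aadac. The median change over the 42 went from 1.86 with this library to -0.12 without it, beside -0.17 over all genes in both cases. The macrophage list held 0.0125% to 0.0179% in obese NK, below every obese ILC1 library (0.0953% to 1.58%). T cell genes (0.169% to 0.656% against 0.02362% to 0.0498%) and B cell genes (0.00893% to 0.525% against 0.00325% to 0.00780%) were likewise higher in all obese ILC1 libraries, and the part of these lists was not tested. A difference of the change with diet between ILC1 and NK cells was called for none of the 42 in edgeR's interaction test. Of the 24 tested, 4 had an unadjusted p under 0.05, namely Alb, Apoe, Azgp1 and Cfb, beside 155 of 2606 genes. All 4 were positive, meaning a larger rise with obesity in ILC1, as were 23 of the 24 tested (median 6.19). Without obese ILC1 26, 3 of the 24 had an unadjusted p under 0.05, 1 of them positive, beside 208 of 2698 genes. Then only 9 of the 24 were positive, with a median of -1.12, beside -0.23 over all genes tested. DESeq2 called 21 of 3623 genes in the interaction, 6 higher and 15 lower. Of the 42 these included 2, Ces1c and Cfb, both higher.

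The ratio of each transcript to Alb was then compared with that of obese ILC1 26, the library with the most Alb. The question was whether the libraries held these transcripts in the same proportions. A ratio was compared where a transcript had at least 3 counts or would have had 3 at the ratio of obese ILC1 26, and values within 2-fold were counted as close. The 3 obese NK libraries were nearest: 23 of 28 ratios were within 2-fold in obese NK 25, 19 of 29 in obese NK 26 and 10 of 23 in obese NK 27. In lean NK 25, 26 and 27 the numbers were 1 of 15, 0 of 12 and 1 of 23, with Alb itself at only 13 and 7 counts in the first pair. In lean ILC1 they were 2 of 16, 4 of 23 and 3 of 26, and in obese ILC1 25 and 27 they were 4 of 25 and 4 of 28. Spearman's rho of the 42 counts with those of obese ILC1 26, given as a description over 42 genes that are not independent, was 0.96, 0.83 and 0.77 in obese NK and 0.36 to 0.61 in the other 8 libraries. The 3 obese NK libraries came from the same mice as the 3 obese ILC1 libraries, and obese NK 26, from the mouse of obese ILC1 26, was not the closest of them.

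**Figure D3:**
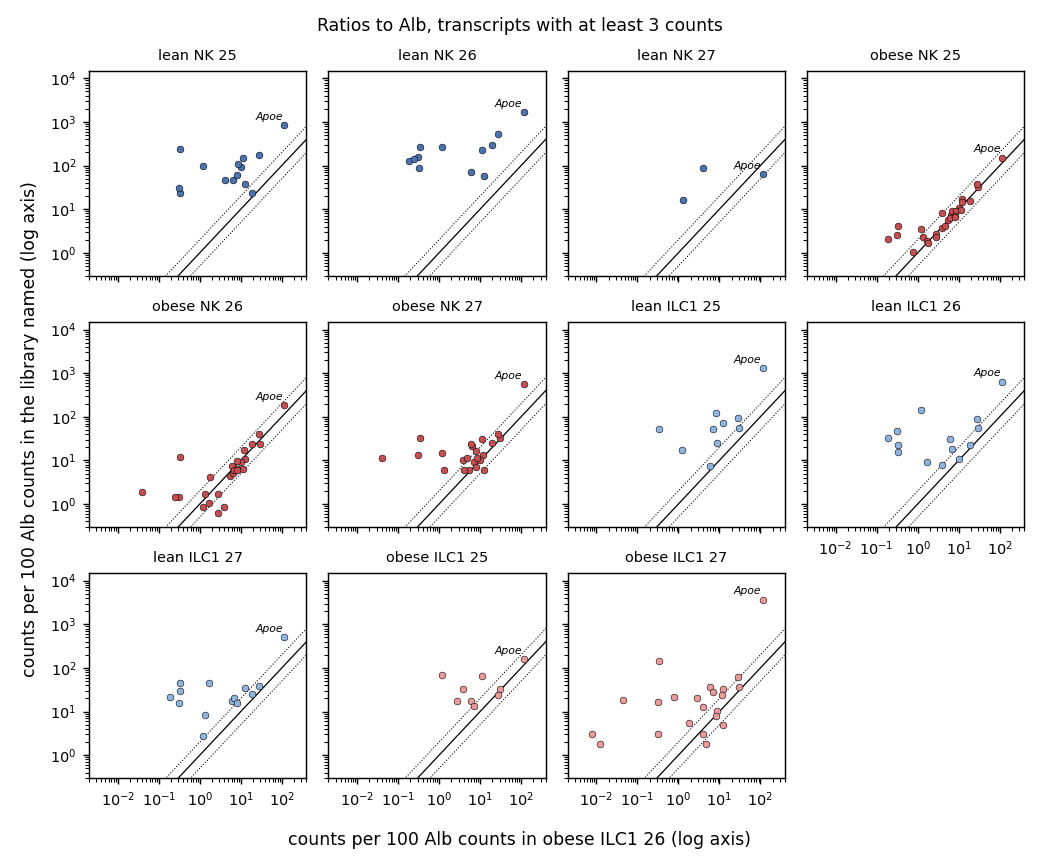
Counts per 100 Alb counts of each transcript with at least 3 counts, in the library named above each panel (vertical, log axis) against obese ILC1 26 (horizontal, log axis). The solid line marks equal ratios and the dotted lines 2-fold, and the points of obese NK 25 and 26 follow the line, whereas most points of the lean and the other obese ILC1 libraries lie off it.

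Apoa1 was within 2-fold of the ratio of obese ILC1 26 in 7 of the other 11 libraries. There were 29.8 Apoa1 counts per 100 Alb in obese ILC1 26, 32.5, 23.8 and 33.3 in obese NK 25, 26 and 27, 54.7 and 53.8 in lean ILC1 25 and 26, and 32.2 and 36.4 in obese ILC1 25 and 27. In lean NK 27 the ratio was 0.435, as 1 Apoa1 count stood beside 230 Alb counts. Other transcripts were low in lean NK 27 as well, with 20 of the 23 compared below the 2-fold limit, and Azgp1 and Apoc4 above it. In lean ILC1 27 no Apoa1 count stood beside 109 of Alb.

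Transcripts above the ratio of obese ILC1 26 in every library of a group, with at least 10 counts in each, were few. In obese NK this was Arg1 alone, in lean ILC1 Apoe, Apoc3 and Arg1, and in the obese ILC1 libraries 25 and 27 Ambp, Apoc1 and Cfb. In lean NK there was none. Arg1 had 0.339 counts per 100 Alb in obese ILC1 26, 4.17, 12.0 and 32.3 in obese NK, and 52.8, 23.1 and 45.0 in lean ILC1.

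Apoe had 115 counts per 100 Alb in obese ILC1 26. The ratio was 152 and 185 in obese NK 25 and 26 and 554 in obese NK 27. It was 1315, 640 and 513 in lean ILC1, 854, 1657 and 62.6 in lean NK, and 161 and 3664 in obese ILC1 25 and 27. Relative to Alb, Apoe was thus high in all lean ILC1 libraries and highest in obese ILC1 27, and within 2-fold of obese ILC1 26 in obese NK 25 and 26, obese ILC1 25 and lean NK 27. Of the 11 macrophage genes, 4, 5 and 3 had a count in lean NK, 9 to 10 in obese NK, 6 to 9 in lean ILC1, and 4, 11 and 9 in obese ILC1 25, 26 and 27. Their summed counts were 162 to 1210 in lean NK, 331 to 412 in obese NK, 172 to 463 in lean ILC1, and 1589, 29030 and 2993 in obese ILC1. In the 3 lean NK libraries Adgre1, Csf1r, Cd5l, Cd14 and Cd209f were at 0, and C1qa and C1qc had 0 or 1 count each. In lean NK 25, 26 and 27 the Kupffer cell gene Clec4f had 0, 23 and 0 counts and C1qb 28, 0 and 1. Cd163 had 157, 72 and 786 counts there and Cd68 69, 65 and 423. In obese ILC1 25 C1qa, C1qc, Csf1r, Cd5l, Cd14, Cd163 and Cd209f were at 0, while Cd68 had 745, Adgre1 520, Clec4f 250 and C1qb 74 counts. In obese ILC1 27 C1qa had 147, C1qb 688 and C1qc 246 counts. The part of macrophage RNA in the Apoe counts was not tested.

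**Figure D4:**
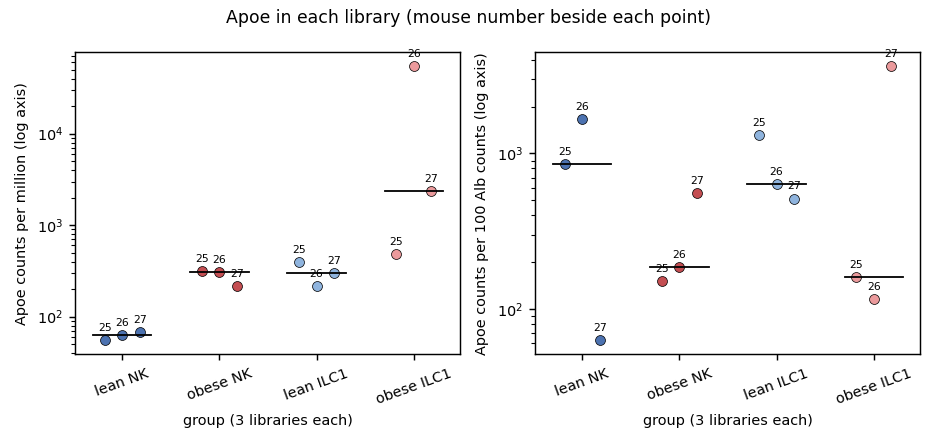
Apoe counts per 1000000 counts (left) and per 100 Alb counts (right), both on log axes, in each library (points, with the mouse number), with the median of each group as a line. On the left, the lean NK libraries lie at 55.0 to 67.4, below all others. On the right, obese ILC1 27 is highest at 3664 and lean NK 27 lowest at 62.6.

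Counts per length differed widely among the 42 transcripts in obese ILC1 26, and the data hold no library of hepatocytes or whole liver to compare them with. Per kilobase of annotated exon, Apoe (47269 counts per kb), Apoa2 (45739) and Alb (37530) led. When the 42 were divided, after their values had been seen, by where textbooks place the synthesis of the protein, the 30 whose mRNAs are translated on the endoplasmic reticulum (secreted, membrane or lumenal proteins) held 99.4% of the member counts, with a median of 2315 counts per kb. The 12 whose proteins are made in the cytosol for the cytosol, mitochondria, peroxisomes or nucleus (Arg1, Ass1, Agxt, Bhmt, Cps1, Cdo1, Adh1, Adh4, Acsm1, Akr1c6, Aox3 and Cebpa) held 0.626%, with a median of 26.7. Adh1 was the highest of the 12 at 475 counts per kb, and Cps1 (6.30) and Ass1 (1.24), both known as abundant in hepatocytes, were near the bottom. The scarcest of the 30 were C8b (48.3), Ces3b (63.9) and C8a (67.4), so the ranges overlapped. In 31 further hepatocyte genes the medians were 251 counts per kb for 19 genes of the first kind and 18.9 for 12 of the second, with overlapping ranges. Because the division was made after the values were seen, no test is given. Without a hepatocyte library, these differences cannot be told apart from unlike levels of the transcripts in their cells of origin.

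**Figure D5:**
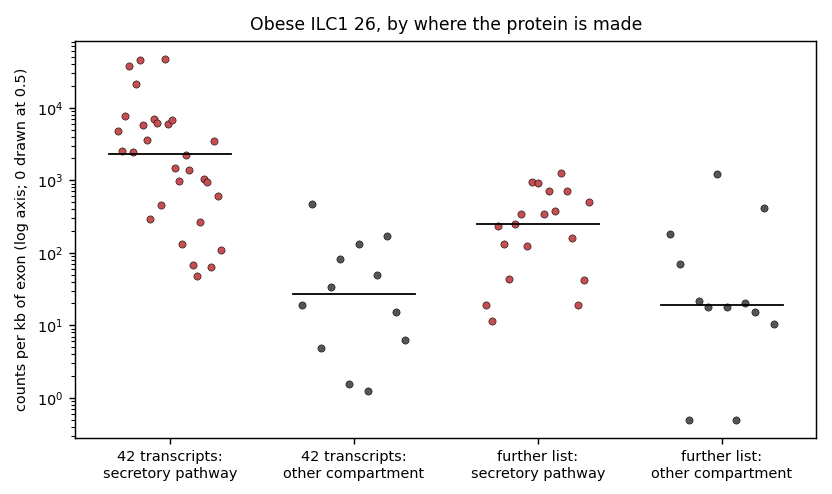
Counts per kilobase of annotated exon in obese ILC1 26 (log axis, with 0 drawn at 0.5) of the 42 transcripts and of 31 further hepatocyte genes, each divided by whether the protein is made on the endoplasmic reticulum (red) or in the cytosol (grey). Points are genes and lines are medians, 2315 against 26.7 for the 42 and 251 against 18.9 for the further list.

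In the other libraries apart from lean NK 27, the 12 transcripts made in the cytosol held a larger part of the member counts. It was 2.69%, 3.30% and 7.13% in obese NK 25, 26 and 27, 3.75%, 20.8% and 12.3% in lean ILC1, 12.9% and 4.37% in obese ILC1 25 and 27, and 18.7%, 22.0% and 0% in lean NK (0 of 616 counts, which allows up to 0.597%). Besides lean NK 27, the nearest to the 0.626% of obese ILC1 26 were obese NK 25 and 26. As a share of all counts these transcripts overlapped between the NK groups, with means of 0.00276% ± 9.25e-05 in obese and 0.001998% ± 0.00179 in lean NK (SD, n = 3), whereas the 30 others held 0.0715% ± 0.0309 and 0.0174% ± 0.00994 without overlap.

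Of the 31 further hepatocyte genes, 8 were tested and 1 was called in any of the 4 comparisons. Their summed share did not follow the order of the 42: it was 0.00178% to 0.00590% in lean NK and 0.00493% to 0.00997% in obese NK, with overlap, and 0.0490% to 0.0569% in lean ILC1 against 0.0418%, 1.38% and 0.0173% in obese ILC1 25, 26 and 27. Most of the lean ILC1 counts of this list were those of Aqp9, a glycerol channel of hepatocytes, whereas C4bp, Cfi, Ces1d, Ces1f, Crp and Cpb2 had no count in lean ILC1. Aqp9 had 792, 728 and 838 counts in lean ILC1 and 1, 31 and 3 in lean NK, a log2 fold change of 6.08 ± 1.17 (adjusted p = 0.0190). It had 566, 552 and 227 counts in obese ILC1 and 19, 45 and 20 in obese NK, so that obese ILC1 26 did not exceed obese ILC1 25, unlike for all 42 transcripts. Of 12 genes for handling lipoproteins, 11 were measured, 7 tested and 0 called in any comparison. Abcg1, a cholesterol exporter, had 1873 to 5593 counts in all 12 libraries.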

How the data were processed

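Total RNA of sorted liver NK cells and ILC1 was sequenced. The submitters' processing notes name bcl2fastq 2.19, Trimmomatic 0.36.5, STAR 2.5.2b, featureCounts 1.6.0.2 and mm10, without settings or strand. The authors deposited counts per gene and library, and a score made by dividing them by a factor per library and rounding, which was not tested. Symbols ended at Cyp26b1, 1 row that was cut off was dropped, and later genes were not analysed here, so totals (1666637 to 2826766) understate the depth. Groups came from the labels. Members and lists were chosen with earlier results of these data known.

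Counts were tested with edgeR 4.0.16 in R 4.3.3 (TMM, filterByExpr, quasi-likelihood, 1 model of 4 groups, Benjamini-Hochberg over all tested genes), and tested on simulated data. Standard errors are the log2 fold change over the root of F, and fitted values of transcripts at 0 in a group depend on the prior count. DESeq2 1.42.0, its size factors, no filter, the compared libraries alone, a replicate block and each library left out were alternatives. By the labels, libraries of 1 diet that share a number are from 1 mouse. Their deviations from the group means correlated at -0.12 to 0.20. Labels do not say more on cultures or batches. Shares used all counts of a library, and intervals are exact (Clopper-Pearson, 95%). Named were Alb, the 3 most abundant members per role, members called or without overlap between diets, and members above 2-fold of the Alb ratio throughout a group. Others, such as the 18 uneven instances, were named after their values were seen. Positions and exon lengths were taken by symbol from GENCODE on GRCm38.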

Additional observations from a re-analysis of the deposited data

How the results depend on the processing

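Of the counts of calls, DESeq2 changed most, and it gave p-values for 3623 genes, including 13 of the 42 transcripts. It called 8 genes (1 of the 42, higher) for obese against lean NK and 77 (4 higher) for obese against lean ILC1. For ILC1 against NK it called 151 (1 lower) in lean and 154 (4 higher) in obese mice. In the interaction it called 21 genes (2 of the 42, higher). The compared libraries alone gave 1 of the 42 higher in lean ILC1 against NK, and 0 genes in place of 24 for obese ILC1 against NK. With a replicate block, which by labels is the mouse for ILC1 against NK cells and only a shared number for the diets, 21 genes were called in place of 60 in lean mice and 0 in place of 24 in obese mice, with 0 of the 42 in each comparison. With both lean NK 27 and obese ILC1 26 left out, an alternative chosen after seeing the data, 5 genes were called for obese against lean ILC1, 101 (1 of the 42 higher) for lean ILC1 against NK and 107 (1 higher) for obese ILC1 against NK.

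With 1 library left out at a time, genes called ranged from 0 to 1 (obese against lean NK), 0 to 6 (obese against lean ILC1), 29 to 102 (lean ILC1 against NK) and 5 to 66 (obese ILC1 against NK). Of the 42, 0 were called higher for obese against lean NK, 0 to 1 for obese against lean ILC1 (Apoe without obese ILC1 25), 0 to 2 for lean ILC1 against NK and 0 to 4 for obese ILC1 against NK (Ambp, Apoc1, Apoe and Ces1c without obese ILC1 27). None of the 42 was called lower or in the interaction. The mean summed share ranged from 0.0146% to 0.0223% in lean NK, 0.0613% to 0.0913% in obese NK, 0.0486% to 0.0558% in lean ILC1 and 0.218% to 10.1% in obese ILC1, the lowest of these without obese ILC1 26.

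Without the members also made by immune cells, the mean summed share was 0.0115% in lean NK, 0.0398% in obese NK and 0.0171% in lean ILC1, and lean NK then overlapped with both. Without Apoe it was 0.0211% in lean ILC1. Of the ratios to Alb, 52 of 80 were within 2-fold in obese NK, 2 of 50 in lean NK, 9 of 65 in lean ILC1 and 8 of 53 in obese ILC1. A 4-fold limit gave 18 in lean ILC1 and 16 in obese ILC1, and the summed Ahsg, Ambp, Apoa2 and Apoh as denominator gave 6 of 38 in lean NK and 49 of 73 in obese NK. No direction of the fold changes of Apoe, Apoc3, Apoa1, Alb, Cfb and Ambp that were recomputed was reversed. The cause of these changes was not tested. Depth limits the sparse transcripts: with 3 mice a group and spreads set in part by obese ILC1 26, a call that was missed does not show equal levels.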
